A study of Homo sapiens with 30 samples.

Results

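Regions of open chromatin that differed between HNF6 knockout and control cells were examined around 6 genes of the YAP and TEAD pathway: YAP1, TEAD1, TEAD4, CTGF, CYR61 and ANKRD1. Every deposited region with any base within 100 kb of a gene's start site was taken, which gave 63 of 112903 regions. Of these, 52 were among the 89929 regions that the authors listed as different between genotypes, and 11 were among the 22974 regions of their wild-type clusters. Start sites are known here to the nearest kb on hg19: chromosome 11 at 101981 kb for YAP1, chromosome 11 at 12696 kb for TEAD1, chromosome 12 at 3069 kb for TEAD4, chromosome 6 at 132272 kb for CTGF, chromosome 1 at 86046 kb for CYR61 and chromosome 10 at 92681 kb for ANKRD1. Regions lie at a distance from these sites and were not assigned to a gene as its regulatory elements. On the GRCh38.p14 assembly of RefSeq the same windows also hold the protein-coding genes CFAP300 near YAP1, FOXM1, ITFG2, RHNO1 and TULP3 near TEAD4, ENPP1 near CTGF, DDAH1 and ZNHIT6 near CYR61, and HTR7 and RPP30 near ANKRD1. No other protein-coding gene lies in the TEAD1 window.

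YAP1 is a transcriptional coactivator of the Hippo pathway. When the Hippo kinases are inactive it enters the nucleus, where it has no DNA contact of its own and acts through the TEAD family of DNA-binding factors, which includes TEAD1 and TEAD4. CTGF (also CCN2), CYR61 (also CCN1) and ANKRD1 are commonly used as target genes of this complex. CTGF and CYR61 encode secreted matricellular proteins, and ANKRD1 encodes an ankyrin repeat protein. In the embryonic pancreas TEAD1 and YAP1 act at enhancers of multipotent progenitors, and YAP1 activity is lost as endocrine cells form.

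Accessibility had been measured by ATAC-seq, which cuts open chromatin with a transposase, in HUES8, an established human embryonic stem cell line. The 30 samples form 10 groups of 3, from 2 genotypes (labelled wild type and HNF6-Knockout) at 5 stages: undifferentiated embryonic stem cells (ESC), definitive endoderm (DE), primitive gut tube (GT), and then 2 pancreatic stages, endoderm (PE) and progenitors (PP). HNF6, also named ONECUT1, is a DNA-binding factor with cut and homeodomains that acts in liver and pancreas development. All groups share the HUES8 background and the in vitro pancreatic differentiation, and no other allele or agent is named. The sources used here do not say how the knockout was made, whether it is 1 clone, or whether samples of 1 group are separate differentiations, so the authors' p-values may reflect technical spread. The files hold no library totals, so the depth is unknown. A check of the targeted gene by name was not possible. On chromosome 15, from 53072851 to 53082400, the deposited tables hold 6 regions at 4 stages whose knockout means did not exceed 1.88% of control. They were picked from the control lists of that chromosome for such low knockout means, so they are no check of the knockout. Other listed regions of that stretch are not given here. In bulk cultures, fewer open cells and less opening per cell cannot be told apart.

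For 3 of the 6 genes there is a promoter sequence in the RefSeq tables used here, shown because TEAD factors bind the short core marked in them and listed regions cover the start sites of YAP1 and CTGF. Each line gives the 250 bases before the start site in the direction of transcription, with every match to the TEAD core GGAATG, or to CATTCC on the other strand, in capitals. Coordinates are on GRCh38.p14: chr11:102110197-102110446 on the plus strand for YAP1, chr6:131951373-131951622 on the minus strand for CTGF and chr10:90921088-90921337 on the minus strand for ANKRD1.
YAP1: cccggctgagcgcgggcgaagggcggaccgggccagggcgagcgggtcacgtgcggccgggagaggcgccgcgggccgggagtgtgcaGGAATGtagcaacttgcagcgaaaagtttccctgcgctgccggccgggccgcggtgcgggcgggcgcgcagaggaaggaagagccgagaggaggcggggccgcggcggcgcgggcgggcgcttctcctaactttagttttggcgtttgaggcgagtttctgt
CTGF: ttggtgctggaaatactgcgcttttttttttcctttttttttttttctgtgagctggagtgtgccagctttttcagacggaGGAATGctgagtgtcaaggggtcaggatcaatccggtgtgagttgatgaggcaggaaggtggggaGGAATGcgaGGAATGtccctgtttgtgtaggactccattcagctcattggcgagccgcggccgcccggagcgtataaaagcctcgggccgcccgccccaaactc
ANKRD1: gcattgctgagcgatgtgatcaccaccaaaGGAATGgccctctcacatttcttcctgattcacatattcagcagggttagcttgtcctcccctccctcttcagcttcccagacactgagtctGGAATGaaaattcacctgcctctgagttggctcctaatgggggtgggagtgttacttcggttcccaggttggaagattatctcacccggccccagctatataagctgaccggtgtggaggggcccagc
The CTGF promoter held 3 matches, which begin 169, 104 and 95 bases before the start. ANKRD1 held 2, at 220 and 128 bases, and YAP1 held 1, at 162 bases. Of 35116 RefSeq promoters of the same length, 11.9% held at least 1 match, 0.940% at least 2 and 0.0826% at least 3. The ONECUT core ATTGAT, or ATCAAT on the other strand, had 1 match in the CTGF promoter, beginning 143 bases before the start. It was absent from these letters of YAP1 and ANKRD1 and present in 5.58% of all promoters. The motifs do not overlap in these sequences, and a match describes letters only.

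Around the 6 genes, more listed regions were higher in knockout than in control cells at every stage but PE. The same held for all listed regions, with the shares given below. A region "higher in knockout" is one that the authors' list for the knockout holds at that stage, and the same goes for control. At ESC 12 regions were higher in knockout and 2 in control, and at PP the numbers were 16 and 1. DE had 4 higher in knockout and 2 in control, and GT had 5 and 2. PE went the other way, with 2 higher in knockout and 6 in control. Over all stages, 39 of the 52 regions (75%) were higher in knockout, against 68.1% of all listed regions.

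The share of each stage gives the background for these counts. Of all listed regions, 57.4% were higher in knockout at ESC, then 62.8% at DE, 73.0% at GT, 43.9% at PE and 88.7% at PP. Shares around the 6 genes were 85.7%, 66.7%, 71.4%, 25% and 94.1% in the same order. The DE, GT and PP shares lie near the background, so these counts are not a result about the 6 genes. At ESC and PE the shares lie further from it, on 14 and 8 regions. The share also varied by chromosome: over the chromosomes of the 6 genes it ran from 34.2% (chromosome 1) to 84.0% (chromosome 6) at ESC and from 11.7% (chromosome 12) to 44.1% (chromosome 10) at PE. Its part in the counts was not tested.

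**Figure D1:**
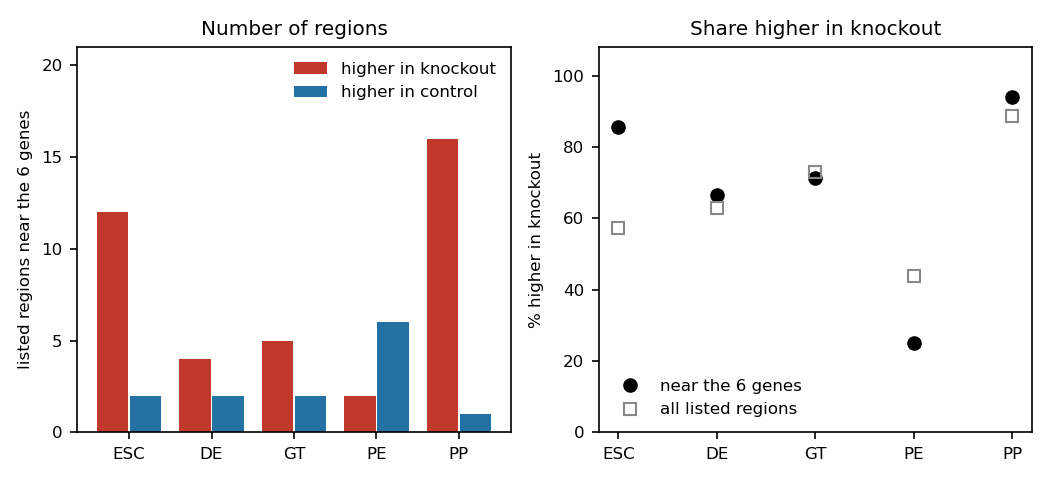
Left, bars give the number of listed regions within 100 kb of the 6 start sites by stage and direction. Right, the percentage of them higher in knockout (filled circles) is set beside that of all listed regions of the stage (open squares). PP has 16 regions higher in knockout and 1 higher in control, and PE is the stage with more control regions, 6 against 2.

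The differences were of ordinary size. Sizes are log2 ratios of knockout to control (the sign-reversed ratio of the authors' deposited tables), so positive values mean higher in knockout. The 52 regions ranged from 0.31 to 2.56 in absolute log2 ratio with a median of 0.85, against a median of 0.94 over all listed regions. Their median width was 825 bp, against 750 bp for all. The 3 values of one genotype lay wholly above those of the other in 41 of the 52 regions (78.8%), against a background of 78.5%. The authors' -log10 p, which is at least 5 in every listed region, reached 10 in 3 of the 52 regions, against 9022 of all 89929. These 3 were a TEAD1 region at PE and the start-site regions of TEAD1 and CTGF at ESC. An exact permutation test of 3 values against 3 cannot give a two-sided p under 0.1, so no test was added to that of the authors.

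**Figure D2:**
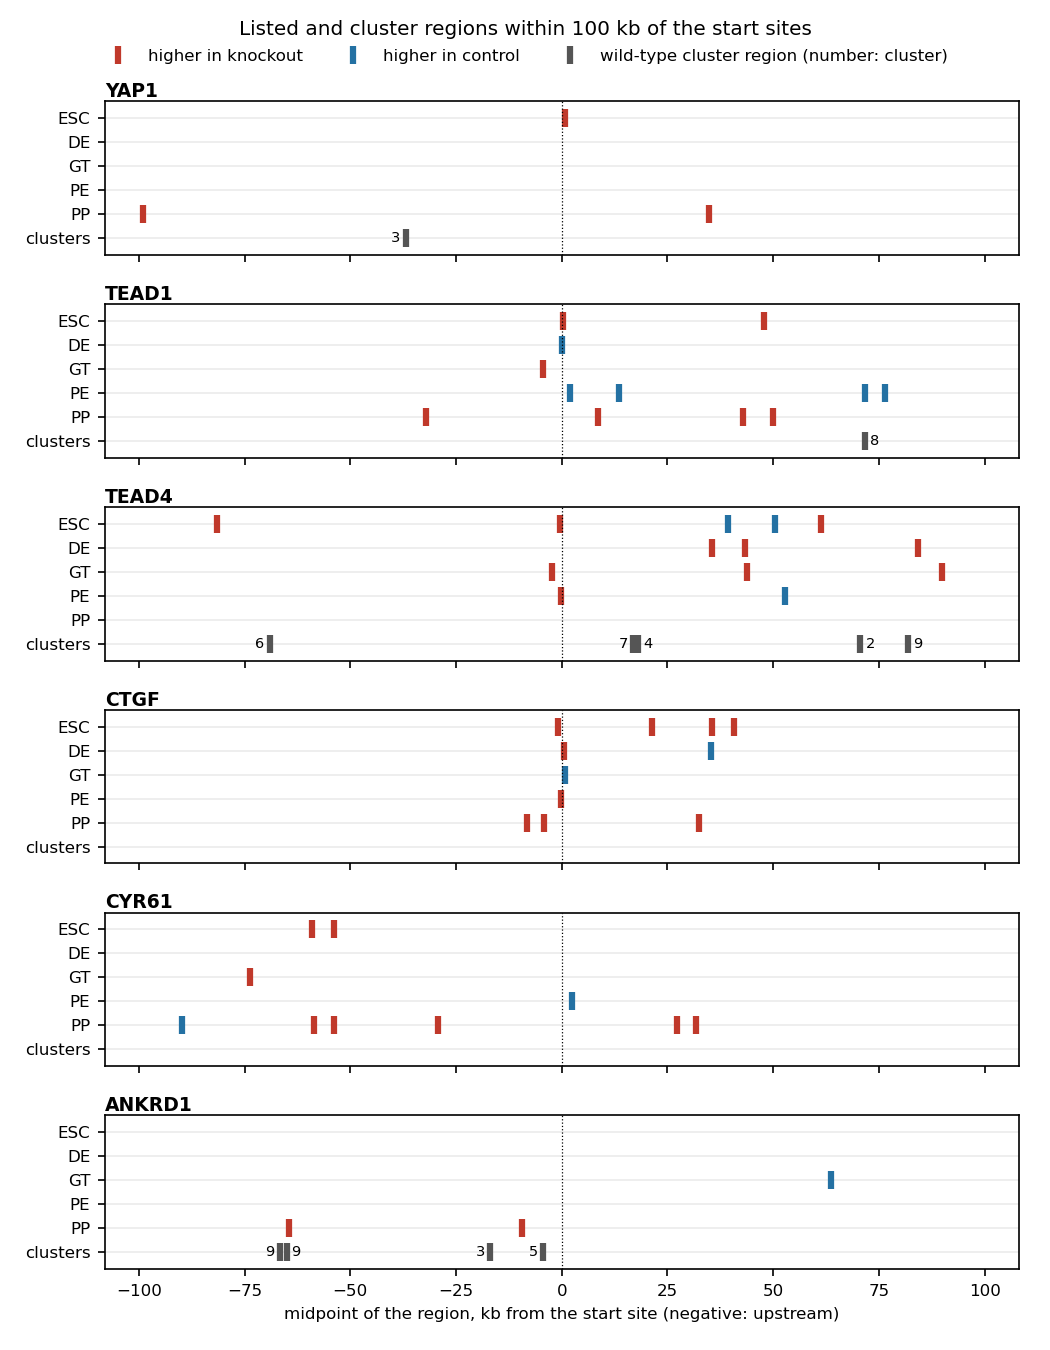
Each panel is 1 gene, and marks are the midpoints of regions by distance from the start site in kb along the direction of transcription. Rows are stages, with red for higher in knockout and blue for higher in control, and the bottom row gives wild-type cluster regions with the cluster number. TEAD4 has no mark at PP, and TEAD1 has blue marks alone at PE.

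YAP1, the coactivator, had few listed regions: 1 at ESC, 2 at PP and none at DE, GT or PE. The ESC region, chr11:101980901-101982500, spans the start site. In the authors' deposited table it had knockout values of 897, 1155 and 1212 and control values of 760, 750 and 935, a log2 ratio of 0.42 with a -log10 p of 7.75. The sets overlap, because the lowest knockout value is under the highest control value. Far upstream, the region at 99.0 kb (chr11:101881751-101882250) had knockout values of 149, 186 and 187 and control values of 70, 102 and 36 at PP in the authors' deposited table, a log2 ratio of 1.32. Every knockout value was above every control value there. It is also the member nearest to the edge of the window. Just outside the TEAD4 window, a DE region whose nearer end lies 100.3 kb from the start had a log2 ratio of 0.59 in the authors' deposited table. The other PP region of YAP1, 34.9 kb downstream, had low values of 52, 53 and 44 against 26, 7 and 2 in the authors' deposited table.

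TEAD1, a DNA-binding partner of YAP1, had 12 listed regions, 7 higher in knockout and 5 in control. Each stage held few of them, and a pattern by stage was not tested. At ESC both of its regions were higher in knockout, at DE the single one was higher in control, at GT the single one was higher in knockout, at PE all 4 were higher in control and at PP all 4 were higher in knockout. On chromosome 11 as a whole, 52.6%, 79.9%, 84.2%, 38.8% and 89.2% of listed regions were higher in knockout at ESC, DE, GT, PE and PP. The DE and PE regions of TEAD1 thus ran against the larger part of their chromosome at DE and with it at PE.

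The TEAD1 start site itself was listed at ESC and DE, in opposite directions. The ESC region chr11:12695301-12697150 had knockout values of 1087, 923 and 1092 and control values of 617, 588 and 702 in the authors' deposited table. Knockout values were all higher, with a log2 ratio of 0.70, and its -log10 p of 18.8 ranked 152 of the 11507 regions in the knockout ESC list. At DE the region chr11:12695501-12696850 had knockout values of 241, 188 and 208 and control values of 539, 343 and 232 in the authors' deposited table, a log2 ratio of -0.80. Here the sets overlap, since the lowest control value is under the highest knockout value, and without the first control value the ratio was -0.44. The difference between the stages was not tested. Close to the start, 2.0 kb downstream, the PE region chr11:12697701-12698250 had knockout values of 123, 139 and 103 and control values of 225, 204 and 298 in the authors' deposited table, with no overlap (log2 ratio -0.99). At GT a region 4.5 kb upstream had knockout values of 81, 55 and 149 and control values of 36, 18 and 48 in the authors' deposited table, again with no overlap but at low values.

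The highest score of all 52 regions was also at TEAD1. At PE the region chr11:12767351-12768200, 71.8 kb downstream of the start, had knockout values of 331, 186 and 256 and control values of 506, 554 and 782 in the authors' deposited table. All control values were higher, the log2 ratio was -1.25 (2.38-fold), and the -log10 p of 30.6 ranked 80 of the 7111 regions in the control PE list. It was the one listed region of the 6 genes to touch a wild-type cluster region, chr11:12767361-12767860 of cluster 8. Over all listed regions 10.9% touch a cluster region, and 18.4% of cluster 8 touches the control PE list. A neighbouring PE region, 76.4 kb downstream, had knockout values of 56, 8 and 49 and control values of 132, 72 and 98 in the authors' deposited table, with no overlap. The remaining PE region, 13.6 kb downstream, was weaker, at 460, 453 and 443 against 460, 692 and 706 in the authors' deposited table. At PP, none of the listed TEAD1 regions lies at these places. The PP region with the highest score, 42.8 kb downstream (chr11:12738301-12739300), had knockout values of 413, 256 and 332 and control values of 137, 169 and 228 in the authors' deposited table, a log2 ratio of 0.90 with no overlap. The other 3 PP regions had ratios between 0.53 and 1.84, and in 2 of them the second control value was within the range of the knockout values.

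TEAD4, the other DNA-binding partner, had 13 listed regions, the most of the 6 genes, of which 10 were higher in knockout and 3 in control. None was at PP, where the knockout list is the longest of the 10, with 24770 regions, and the control list holds 3169. At its start site the knockout was higher at ESC and PE. The ESC region chr12:3068151-3069150 had knockout values of 614, 910 and 668 and control values of 391, 534 and 552 in the authors' deposited table, a log2 ratio of 0.57. At PE the region chr12:3068401-3069450 had 1254, 1440 and 1420 against 1056, 1086 and 1069 in the authors' deposited table, a log2 ratio of 0.36. Both are without overlap, and the PE difference is small beside the median of 0.61 of the knockout PE list. Of all listed PE regions on chromosome 12, 11.7% were higher in knockout, and of those with means of at least 400 in both genotypes, as here, 19.3% (34 of 176). Over all chromosomes, 65.9% of listed PE regions with such means were higher in knockout, so this direction is the usual one at this level genome-wide and the less usual one on chromosome 12. Also near the start, the region chr12:3066201-3067350 at GT ends 1650 bp upstream of the site as given to the nearest kb. It had knockout values of 258, 222 and 216 and control values of 95, 149 and 140 in the authors' deposited table, also without overlap.

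Downstream of the TEAD4 start, DE and GT regions lay at one place. At 43.4 kb, the DE region chr12:3111901-3112950 had knockout values of 307, 204 and 338 and control values of 135, 171 and 199 in the authors' deposited table. The GT region around it, chr12:3111801-3113650, had 507, 461 and 414 against 265, 300 and 217 in the authors' deposited table. The knockout was higher without overlap at both stages, with log2 ratios of 0.75 and 0.82. The DE region 35.5 kb downstream had 622, 424 and 331 against 371, 240 and 256 in the authors' deposited table. Its sets overlap, and its ratio of 0.67 became 0.38 without the first knockout value. Control cells were higher in 3 regions between 39.4 and 52.7 kb downstream, at ESC and PE. The PE one, chr12:3121451-3121900, had knockout values of 41, 58 and 70 and control values of 118, 119 and 151 in the authors' deposited table, a log2 ratio of -1.18 with no overlap. That of ESC with the higher score, 50.5 kb downstream, had 174, 123 and 191 against 317, 247 and 306 in the authors' deposited table, likewise without overlap.

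**Figure D3:**
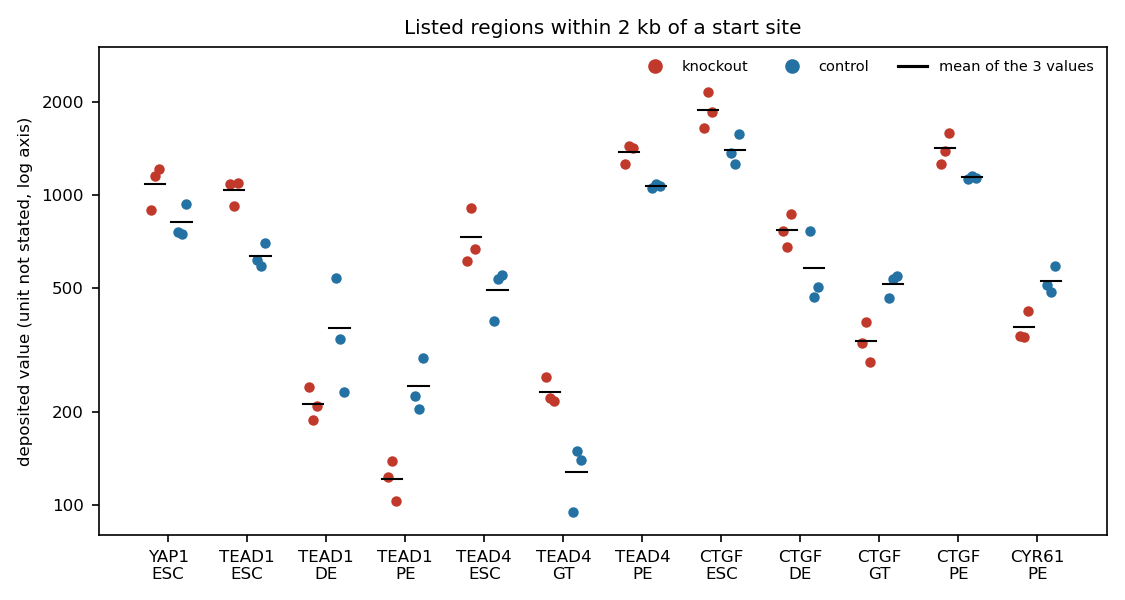
The 12 listed regions that span or come within 2 kb of a start site, with the authors' deposited values on a log axis (3 knockout values in red, 3 control values in blue, black lines for the means). The 4 ESC regions have higher means in knockout, while TEAD1 at DE and PE, CTGF at GT and CYR61 at PE have higher means in control.

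CTGF, the best known target gene, had 11 listed regions. A region over its start site, as given to the nearest kb, was listed at 4 of the 5 stages, against at most 2 for the other 5 genes. The GT and DE regions end at 132272050 and 132272450, shortly past the site at 132272 kb, so they may not reach the exact start. These counts therefore depend on the rounding of the site. The direction was higher in knockout at ESC, DE and PE and higher in control at GT. The ESC region chr6:132271201-132274450 is the widest of the 52, at 3250 bp. It had knockout values of 1647, 2143 and 1852 and control values of 1366, 1261 and 1570 in the authors' deposited table, a log2 ratio of 0.43 with a -log10 p of 13.8. No values overlap. At DE the region chr6:132270651-132272450 had 767, 679 and 869 against 766, 470 and 503 in the authors' deposited table. These sets overlap, and without the first control value the log2 ratio of 0.41 became 0.66.

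At GT the listed region at the CTGF start, which lies almost wholly downstream of it, was higher in control. The region chr6:132270601-132272050 had knockout values of 334, 390 and 289 and control values of 466, 537 and 548 in the authors' deposited table, a log2 ratio of -0.61. All 3 control values were above the knockout values. At PE the region chr6:132271501-132273050 had knockout values of 1261, 1390 and 1588 and control values of 1129, 1155 and 1138 in the authors' deposited table. The knockout was again higher without overlap, by a log2 ratio of 0.31, the smallest of the 52 regions. The stages share no libraries, and whether the stages differ was not tested. These regions share only part of their span: the ESC and GT regions have 850 bp in common and the GT and PE regions 550 bp. On chromosome 6, 76.4% of listed GT regions and 30.6% of listed PE regions were higher in knockout, so the regions at the CTGF start went the less usual way there at both. At PE its means exceed 400 in both genotypes, and of listed PE regions of that level 51.2% (86 of 168) were higher in knockout on chromosome 6 and 65.9% over all chromosomes. Set against regions of like level, the PE direction of the CTGF start is therefore no exception. Of listed GT regions of that level, 49.9% were higher in knockout over all chromosomes, against 73.0% of all listed GT regions. The CTGF region at GT had means of 338 in knockout and 517 in control, so only its control mean reaches that level. A share for chromosome 6 at that level is not given for GT.

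Another CTGF place also turned. About 35.4 kb downstream, the ESC region chr6:132236251-132236850 had knockout values of 135, 189 and 264 and control values of 84, 68 and 112 in the authors' deposited table. The DE region inside it, chr6:132236401-132236800, had knockout values of 28, 49 and 18 and control values of 93, 73 and 89 in the authors' deposited table. Neither overlaps, and the log2 ratios were 1.15 at ESC and -1.40 at DE. The ESC list also holds regions 21.4 and 40.7 kb downstream of CTGF, both higher in knockout without overlap. Chromosome 6 was mostly higher in knockout at ESC (84.0% of its listed regions) and less so at DE (53.3%). At PP all 3 CTGF regions were higher in knockout, as were 95.6% of the listed PP regions of chromosome 6. The one with the highest score, 8.2 kb upstream (chr6:132279951-132280500), had knockout values of 174, 152 and 200 and control values of 105, 113 and 42 in the authors' deposited table, with no overlap.

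CYR61, the other matricellular target, had 10 listed regions, 6 of them at PP. Near its start, control cells were higher at PE. The region chr1:86047651-86049200 begins 1651 bp downstream of the start site as given to the nearest kb. It had knockout values of 352, 349 and 422 and control values of 512, 486 and 590 in the authors' deposited table. There is no overlap, and the log2 ratio was -0.50. It is the one listed region within 2 kb of the CYR61 start at any stage.

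Upstream of CYR61, the same 2 places were higher in knockout at ESC and PP. At 59.1 kb, the ESC region chr1:85986601-85987250 had knockout values of 263, 229 and 179 and control values of 135, 92 and 120 in the authors' deposited table. The PP region chr1:85986901-85987700 had 432, 267 and 256 against 193, 233 and 137 in the authors' deposited table. Both are without overlap, with log2 ratios of 0.95 and 0.76, the latter becoming 0.48 without the first knockout value. At 53.8 kb, the ESC region had 198, 162 and 265 against 103, 131 and 98 in the authors' deposited table, without overlap. Its PP counterpart had 695, 512 and 648 against 334, 577 and 390 in the authors' deposited table, where the second control value lies within the knockout range. The PP log2 ratio of 0.51 became 0.77 without that value. On chromosome 1, 34.2% of listed ESC regions and 75.8% of listed PP regions were higher in knockout, so the ESC pair runs against its chromosome.

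Other CYR61 regions were seen at 1 stage each. The largest ratio of the 52 regions, 2.56, belongs to a GT region 73.7 kb upstream with low knockout values of 44, 17 and 66 and control values of 6, 5 and 8 in the authors' deposited table. With 10 in place of 1 added to each mean, its ratio was 1.68. The PP region with the highest score among those higher in knockout, chr1:86072751-86073750 (27.3 kb downstream), had 661, 568 and 542 against 297, 528 and 351 in the authors' deposited table. These sets do not overlap. The single PP region higher in control, 89.8 kb upstream (chr1:85956051-85956350), had knockout values of 28, 42 and 3 and control values of 56, 113 and 118 in the authors' deposited table, again without overlap.

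ANKRD1, the remaining target, had 3 listed regions and none within 2 kb of its start at any stage. At GT the region chr10:92616601-92618300, 63.5 kb downstream, had knockout values of 288, 342 and 357 and control values of 517, 499 and 614 in the authors' deposited table. Control values were all higher, with a log2 ratio of -0.72 and a -log10 p of 9.43. Of the listed GT regions of chromosome 10, 43.9% were higher in knockout. At PP the region chr10:92689951-92690900, 9.4 kb upstream, had knockout values of 590, 642 and 573 and control values of 341, 566 and 326 in the authors' deposited table. The knockout was higher without overlap, by a log2 ratio of 0.55, or 0.85 without the second control value. A PP region 64.4 kb upstream had 123, 58 and 71 against 24, 41 and 21 in the authors' deposited table, also without overlap.

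At PP, 1 of the columns moved with these values, and its part in them was not tested. The second control value was the highest of the 3 control values in 13 of the 17 PP regions, against 42.0% of all listed PP regions. Knockout and control values were without overlap in 13 of the 17, and in 16 of 17 when the second control value was left out, a comparison added after seeing the data. Over all listed PP regions these shares were 79.8% and 86.9%.

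**Figure D4:**
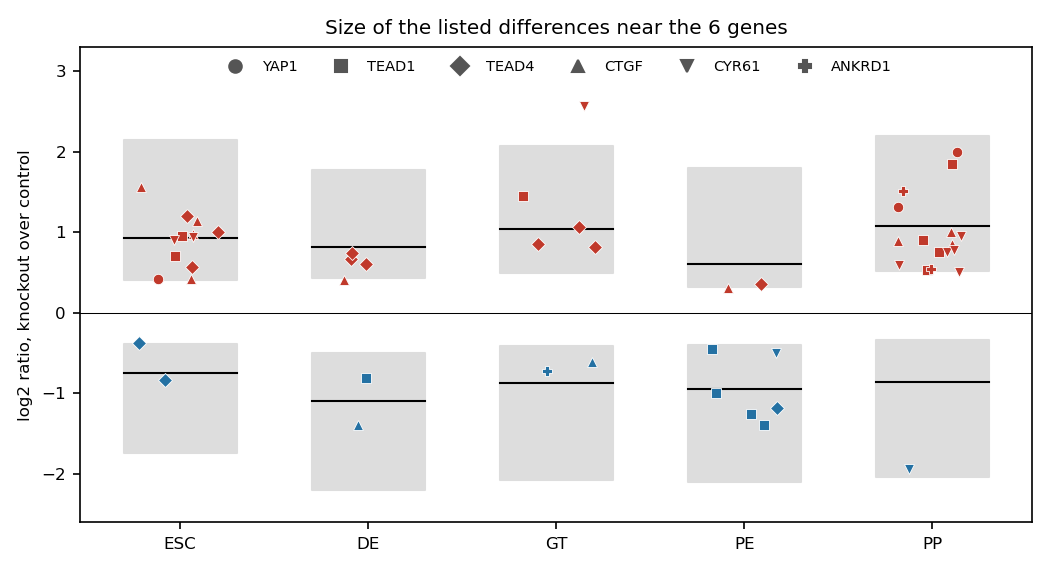
Log2 ratio of knockout to control of each of the 52 regions by stage, with gene shown by symbol and direction by colour. Grey boxes span the central 90% of all regions of the same list and black lines give their median. The GT region of CYR61 at 2.56 lies above its box. At PE, TEAD4 at 0.36 lies just inside the lower end of its box and CTGF at 0.31 just below it. Regions of CTGF at DE (0.41), CYR61 at PP (0.51) and TEAD4 at ESC (-0.37) also lie just outside theirs.

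The places listed at more than 1 stage were few. Counting each pair of overlapping regions from different stages, there were 12 pairs, 7 with the same direction and 5 with opposite directions. Over all listed regions there were 14578 such pairs, of which 42.1% had opposite directions, so 5 of 12 is near the background. Of the 5, 4 were at CTGF and 1 at TEAD1, and 3 of them share the CTGF start region at GT. In 3 of the 5 the values were without overlap at both stages, or 3 of 12 pairs against 22.9% of all pairs. The pairs of the same direction were at TEAD4, CTGF and CYR61, and all of them were higher in knockout, as were 81.0% of all pairs of the same direction. YAP1 and ANKRD1 had no place listed at more than 1 stage.

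The wild-type clusters gave 11 regions of 500 bp around the 6 genes: 5 near TEAD4, 4 near ANKRD1, 1 near YAP1, 1 near TEAD1 and none near CTGF or CYR61. The TEAD4 regions came from clusters 2, 4, 6, 7 and 9, the ANKRD1 regions from clusters 3, 5 and 9 (2 regions), and the YAP1 region from cluster 3. The sources used here do not describe the accessibility profile behind each cluster. Of the 11, 1 touched a listed region, the one at TEAD1, against 38.4% of all cluster regions. By cluster, the share touching a list ran from 23.3% (cluster 9) to 57.6% (cluster 5). The cluster 5 region nearest to ANKRD1, chr10:92685225-92685724, lies 4.5 kb upstream of the start and touched no list at any stage, while 57.6% of cluster 5 touched one. Both cluster 9 regions of ANKRD1, 65.1 and 66.7 kb upstream, lie close to the PP region there without touching it.

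The region numbers in the lists run in genome order within each stage and reach far past the number of listed regions. Counted from 0, the highest number at PP stands for 371534. The sources used here do not say what the numbers count. If each stands for 1 candidate region, 7.52% of the candidates were listed at PP and 4.72% at ESC. In the CTGF window, the numbers of the listed regions inside it and nearest on either side allow between 8 and 11 candidates at PP. Of these 3 were listed, between 27.3% and 37.5%. At ESC the numbers allow between 18 and 47, of which 4 were listed, between 8.51% and 22.2%. In the TEAD4 window the numbers allow at most 77 at PP, of which none was listed. Summed over the 6 windows, the share at PP was between 5.40% and 16.3% and at ESC between 3.28% and 11.5%, ranges that include the background.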

How the data were processed

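The deposited files are headerless region lists. Bowtie2, MACS2 and the hg19 build are named in the submitters' processing notes; the sources used here do not name the differential caller, a read shift for the transposase or the scaling. The 10 lists of differences carry, as deposited by the authors, 2 sets of 3 whole numbers of unstated unit, a -log10 p and a log2 ratio per region. These values and scores are the authors' own. The log2 ratio equals that of the set means with 1 added to each. The second set is higher in every control list and the first in every knockout list, so they were read as control and knockout; this rests on the list names, and the columns carry no replicate numbers. No count model was run. The 9 cluster files give positions alone.

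With Python 3.11.15 and pandas 2.3.3, regions with any base within 100 kb of a start site were taken. Distances run from start site to midpoint unless an end of the region is named. Which regions fall within 2 kb of a start may depend on the rounding of the sites to the nearest kb. Strand of YAP1, CTGF and ANKRD1 is from RefSeq and that of the others from general knowledge. Regions named with values are those within 2 kb of a start, those with the highest score per gene and list, those touching a cluster region (at least 1 bp) and those listed at the same place at several stages; a few others were chosen after their values were seen. The members and lists were chosen with earlier results of these data known. The window and overlap code was checked on simulated regions. Alternatives were a 50 kb window, midpoints, a -log10 p of at least 10, non-overlapping values, a pseudocount of 10, centring and leaving out each value. Other Hippo pathway genes were not analysed here, since no hg19 start sites or annotation were used, and exons or introns are not given for the same reason.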

Additional observations from a re-analysis of the deposited data

Results flagged for a closer look

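At 2 places near CTGF, all values of the knockout lay above those of the control at one stage and below them at another; the differences between stages were not tested. At the start site, the log2 ratio of knockout to control at ESC minus that at GT was 1.04, and that at GT minus that at PE was -0.92. The site is given to the nearest kb, and the GT region lies almost wholly downstream of it and may not reach the exact start. At the place 35.4 kb downstream, the ratio at ESC minus that at DE was 2.54. Of all pairs of overlapping listed regions from different stages, 22.9% likewise had opposite directions without overlap of values at either stage. The regions compared overlap but are not identical, and the share of listed regions higher in knockout differed between the stages over the whole of chromosome 6 (84.0% at ESC, 53.3% at DE, 76.4% at GT and 30.6% at PE). The part of that in the CTGF values was not tested.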

How the results depend on the processing

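No paired analysis was possible because the columns carry no replicate numbers. With the midpoint in the window, all 10 counts by stage and direction were within 1.5 times their values. In a 50 kb window, the GT counts fell to 3 higher in knockout and 1 in control, the control count at PE to 3 and that at PP to 0, cluster regions to 5 and those touching a list to 0; more regions were higher in knockout than in control at ESC, DE, GT and PP, and the PE counts were 2 and 3. With a -log10 p of at least 10 the knockout counts were 2 at ESC and 0 at DE, GT, PE and PP, and the control counts 1 at PE and 0 at ESC, DE, GT and PP. With non-overlapping values the control counts were 1 at ESC and 1 at DE, and the knockout count at DE was 2. A pseudocount of 10 and leaving out any value reversed none of the 33 named ratios; leaving out a value moved 6 by over 1.5 times, and the pseudocount moved 1 (CYR61 73.7 kb at GT, 2.56 to 1.68), given with them above. Centring on the median of all regions listed at a stage (log2 0.48, 0.57, 0.83, -0.48 and 1.00 from ESC to PP), which the lengths of the lists set, reversed 9: YAP1 start at ESC (-0.06), CTGF start at ESC (-0.05) and DE (-0.16), TEAD4 43.7 kb at GT (-0.01), and at PP TEAD1 42.8 kb (-0.10), CYR61 58.7 kb (-0.24), 53.8 kb (-0.49) and 27.3 kb (-0.41) and ANKRD1 9.4 kb (-0.45). The other 24 kept their sign, but 22 of them changed by over 1.5 times, 7 becoming larger and 15 smaller: CTGF start went from -0.61 to -1.45 at GT and from 0.31 to 0.79 at PE, and TEAD1 71.8 kb at PE from -1.25 to -0.77. The depth behind these values is unknown.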
